A study of Sus scrofa with 24 samples.

Results

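The genes of the circadian clock were followed in the hippocampus of 24 piglets: the activator CLOCK, the period genes PER1, PER2 and PER3, the cryptochromes CRY1 and CRY2, the nuclear receptors NR1D1 and NR1D2, and the output gene DBP. They are defined by their symbols, and 8 of the 9 were matched by Entrez gene number to a row among the 38882 genes counted. NR1D1 (REV-ERBα) is not analysed here. The study asked how a formula containing hydrolyzed fat (HF) affects the brain of piglets that were born small for gestational age (SGA), in comparison with a control formula (CON) and with littermates of appropriate size for gestational age (AGA). Hippocampus was taken on postnatal day 14 from 4 groups of 6 piglets each (AGA CON, SGA CON, AGA HF and SGA HF), all of a PIC commercial cross with no engineered allele named in the labels. Every SGA piglet was matched with a sex-matched AGA piglet from its own litter that was fed alike, which makes 12 pairs, and the pairs were raised in 2 cohorts (replicates 1 to 3 and replicates 4 to 6). The cohorts differed in sex, with 4 male and 2 female pairs in cohort 1 and 2 male and 4 female pairs in cohort 2. The time of day of tissue collection is not given in the sources used here, so the order of piglets along the day is unknown.

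The mammalian clock is a delayed negative feedback loop that runs in nearly every cell. CLOCK, or its relative NPAS2, pairs with ARNTL (BMAL1) and activates transcription of the PER and CRY genes, whose proteins return to the nucleus and repress that activation, while NR1D1 and NR1D2 repress ARNTL and ROR receptors activate it. In rodent tissues DBP, a bZIP factor that is switched on directly by the activator pair, has a large daily swing, PER and NR1D genes peak within the same part of the day, and ARNTL, NPAS2 and CLOCK peak opposite to them. Expression of PER1 is also induced within minutes to hours by neuronal activity and by glucocorticoids. In the hippocampus the clock is known to modulate excitability and memory formation.

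In the annotation of the pig assembly Sscrofa10.2, on which the reads were counted, CLOCK lies on chromosome 8 from 58659297 to 58720896 (minus strand). PER1 lies on chromosome 12 from 55836920 to 55851890 (minus strand) and PER2 on chromosome 15 from 152264819 to 152284153 (minus strand), while PER3 lies on an unplaced scaffold. CRY1 lies on chromosome 5 from 13128680 to 13217202 (plus strand) and CRY2 on chromosome 2 from 17893190 to 17926679 (plus strand). NR1D2 lies on chromosome 13 from 12197595 to 12222718 (plus strand) and DBP on chromosome 6 from 49734283 to 49740214 (minus strand). None of the 8 shares an exon with another counted gene, and reads were counted over their exons, untranslated exons included where annotated.

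Libraries held 6017336 to 9284355 counted reads (median 7346073), so 3 reads, the floor used here, corresponded to 0.323 to 0.499 CPM, the unit in which each gene's reads are scaled to a common library total. Markers of neurons (4 genes, summed level 2739 to 7099 CPM), astrocytes (5 genes, 7517 to 12340 CPM) and oligodendrocytes (5 genes, 7143 to 16557 CPM) were found in every library, and the hippocampal gene PROX1 ranged from 37.1 to 64.3 CPM, whereas ZBTB20, another hippocampal marker, was at or near 0. Single libraries stood apart. SGA CON replicate 6 held 86 genes at more than 1.5 times their level in every other library, against 0 to 4 such genes in the others, and its neuronal sum was the highest. AGA CON replicate 2 had the lowest median correlation with the other libraries (r = 0.965) and the lowest neuronal sum. SGA HF replicate 4 held 305.8 CPM of the pituitary hormone gene GH1, which was at or under 5.05 CPM in the other 23 libraries.

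CLOCK was close to the detection floor. Its count was 0 to 12 reads per library, with 3 reads or fewer in 13 of 24 libraries, over a gene model of 1580 exonic bases. Whether this model holds the whole transcript was not tested, so a low level of CLOCK and an incomplete gene model cannot be told apart in any CLOCK value given here. NPAS2, the other partner of ARNTL, was counted at 276 to 590 reads in each library, or 57.7 ± 8.84 CPM (SD, n = 24). Per length, the level of NPAS2 averaged 11.1 FPKM (CPM per kilobase of exon) and that of CLOCK 0.337 FPKM. ARNTL itself averaged 2.06 ± 0.757 CPM (SD, n = 24), from 7 to 31 reads.

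The other 7 clock genes were ordered by level per length. PER1 was highest at 52.4 ± 12.9 FPKM (SD, n = 24), and CRY2 followed at 31.8 ± 2.498 FPKM. NR1D2 (7.98 ± 1.09 FPKM) and PER3 (7.89 ± 1.51 FPKM) were next and did not differ beyond their spread, NR1D2 being the higher in 15 of 24 libraries. PER2 (3.83 ± 0.521 FPKM) and DBP (3.38 ± 0.662 FPKM) also overlapped, PER2 being the higher in 17 of 24 libraries. CRY1 came after them at 1.77 ± 0.436 FPKM. Every other step of the order, down to CLOCK, held in all 24 libraries. Per length, PER1 was thus the most abundant of the period genes and CRY2 of the cryptochromes. The paper reports RNA integrity as an average over the samples, and its part in these levels was not tested.

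**Figure D1:**
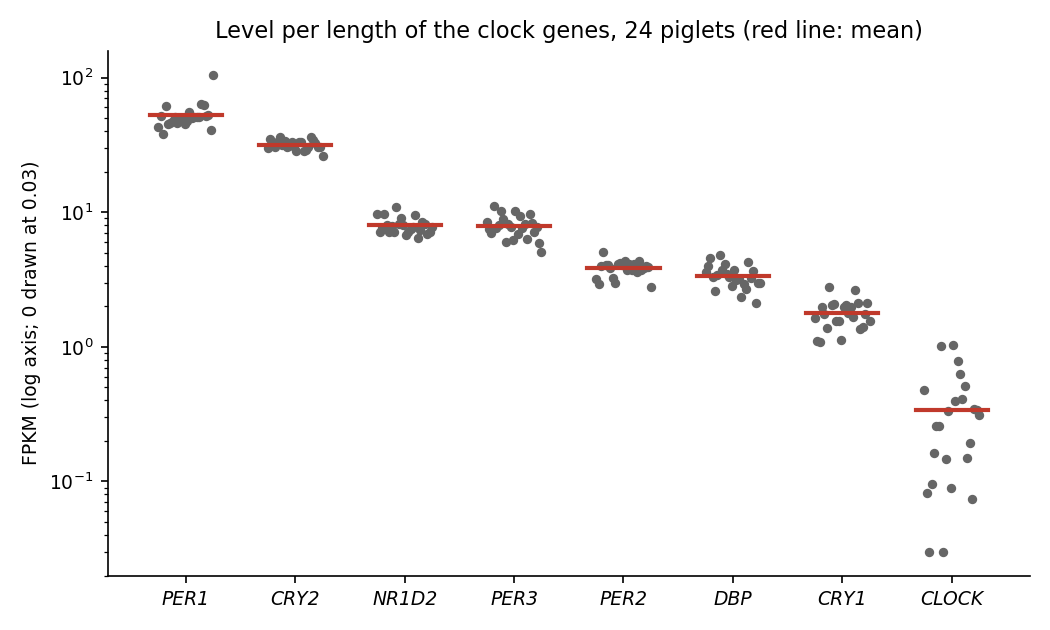
Level per length (FPKM, log axis) of the 8 clock genes in 24 piglets, each grey point being 1 piglet, red lines the mean, and a level of 0 drawn at 0.03. PER1 (mean 52.4) and CRY2 (31.8) lie above all other members in every library, and CLOCK (0.337) lies lowest with the widest scatter.

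The spread between piglets differed among the clock genes. From the lowest to the highest of 24 piglets CRY2 spanned 1.40-fold, NR1D2 1.70-fold, PER2 1.84-fold, PER3 2.22-fold, DBP 2.24-fold, CRY1 2.58-fold and PER1 2.75-fold, and CLOCK ran from 0 to 12 reads. After group means were taken out, the biological coefficient of variation was 0.149 for DBP, where genes of its level had 0.230, and this ratio (0.650) stood at the 19.7th percentile of the 16326 genes tested. The ratio was also under the all-gene median of 0.820 for CRY2 (0.656), PER2 (0.684), NR1D2 (0.765) and CRY1 (0.809). It was above that median for PER3 (1.06), PER1 (1.17) and CLOCK (1.49). By this ratio DBP, the output gene, had less spread than most genes tested, while PER1 had more. PER1 was 572 CPM in SGA CON replicate 6 and 208 to 344 CPM in all other libraries. That library also held the lowest PER2, PER3 and CRY2, and the spread without it was not estimated.

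PER1 encodes a repressor that is also an inducible gene. It was measured at 248, 273 and 333 CPM (lowest, median and highest of 6) in AGA CON and at 208, 246 and 266 CPM in AGA HF. In SGA CON it was 276, 295 and 572 CPM, and in SGA HF 222, 276 and 344 CPM. AGA HF lay wholly below SGA CON, a pair that differs in both size and diet (0.956% of all genes tested had no overlap there), and every other pair of groups overlapped. The top value was SGA CON replicate 6, with the next of its group at 338 CPM. In that library HLF, a bZIP relative of DBP, was also above all others (143.5 CPM, others up to 92.2), as was NPAS2 (87.6 CPM, others up to 65.5). PER2, PER3 and CRY2 were each at their lowest there (13.8, 18.4 and 105.2 CPM).

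PER2, the period gene most tied to the phase of the clock, was 14.6, 20.2 and 25.4 CPM in AGA CON and 14.8, 19.5 and 20.8 CPM in AGA HF. It was 13.8, 18.4 and 19.8 CPM in SGA CON and 19.1, 20.7 and 21.5 CPM in SGA HF. All 6 SGA HF piglets lay within a narrow band, inside the range of AGA CON. PER3, an auxiliary period gene, was 22.6, 29.4 and 40.8 CPM in AGA CON, 21.7, 28.1 and 37.1 CPM in AGA HF, 18.4, 26.4 and 30.5 CPM in SGA CON, and 21.4, 31.9 and 37.0 CPM in SGA HF. The highest PER2 and the highest PER3 both came from AGA CON replicate 2.

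CRY1, the stronger repressor of the activator pair, was 3.62, 4.79 and 6.64 CPM in AGA CON and 3.52, 5.50 and 9.07 CPM in AGA HF. It was 4.39, 6.07 and 8.66 CPM in SGA CON and 4.57, 6.12 and 6.93 CPM in SGA HF, resting on 22 to 75 reads per library. CRY2, its more abundant relative, was 123, 131 and 146 CPM in AGA CON, 122, 130 and 135 CPM in AGA HF, 105.2, 123 and 138 CPM in SGA CON, and 116, 128 and 147 CPM in SGA HF. Neither cryptochrome separated any pair of groups.

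NR1D2 (REV-ERBβ), which represses ARNTL, was 35.1, 37.2 and 47.3 CPM in AGA CON and 37.6, 42.0 and 53.4 CPM in AGA HF. It was 31.4, 36.6 and 41.4 CPM in SGA CON and 33.0, 36.4 and 46.4 CPM in SGA HF. Across the 24 piglets NR1D2 was lower in deeper libraries (Pearson r = -0.51 with log2 total counts), and the part of depth in its values was not tested. DBP, the output factor, was 7.42, 9.06 and 10.5 CPM in AGA CON and 6.85, 10.21 and 12.6 CPM in AGA HF. It was 5.63, 7.47 and 8.64 CPM in SGA CON and 7.74, 9.04 and 11.2 CPM in SGA HF, from 38 to 94 reads. SGA CON was the lowest group for DBP, with all 6 of its piglets below the AGA CON median, though the ranges overlapped.

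**Figure D2:**
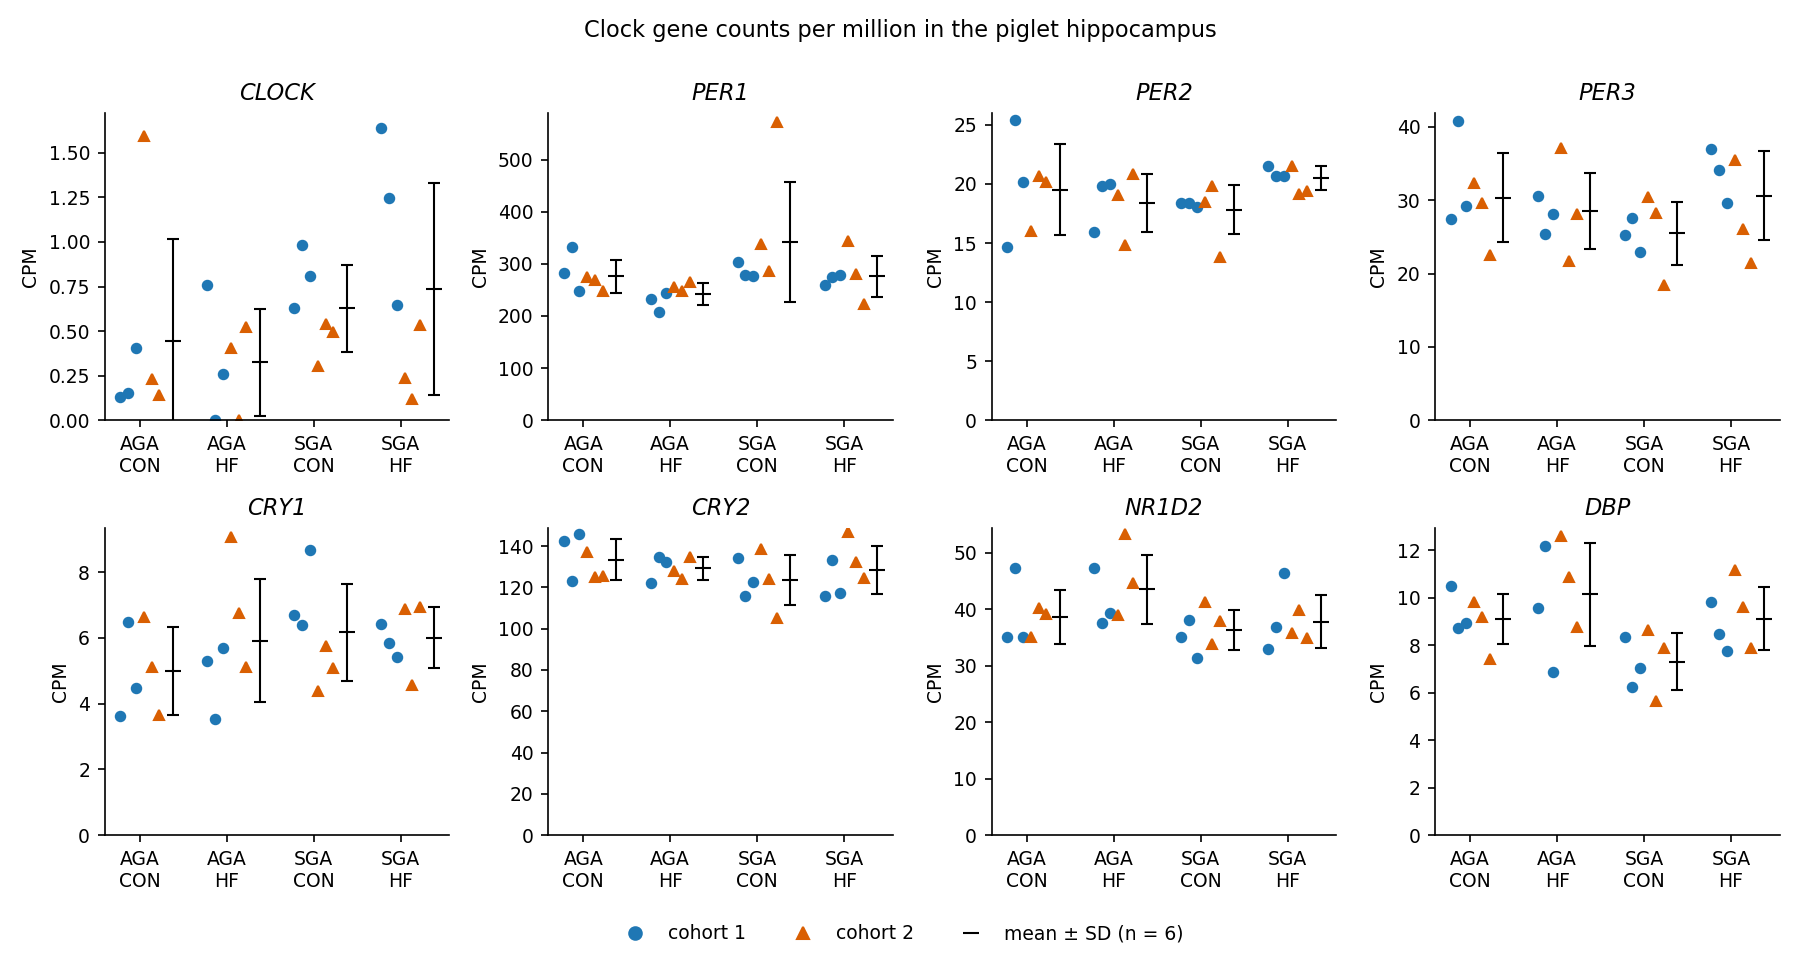
CPM of each clock gene by group, with 6 piglets per group as points (circles for cohort 1, triangles for cohort 2) and the mean ± SD beside them, on axes that start at 0. Groups overlap, except AGA HF and SGA CON for PER1, and the PER1 value of 572 CPM in SGA CON replicate 6 stands clear of the others.

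The first comparison asked whether clock genes differ with size at birth. None of the 8 was a differentially expressed gene (DEG) at the study's FDR of 0.4 between 12 SGA and 12 AGA piglets, where 0.478% of the 16326 genes tested were called. The lowest p-values were those of PER1 and DBP, in opposite directions. The log2 fold change of PER1 was 0.16 ± 0.06 (SE; edgeR FDR = 0.629). That of DBP was -0.24 ± 0.11 (SE; edgeR FDR = 0.721). At an unadjusted p under 0.05 these were 2 of 8 members, and 10.6% of all genes tested. The median log2 difference of the 8 was -0.0011 and that of all genes -0.0023.

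Values of the remaining members were smaller against their errors. The log2 fold change of CRY1 was 0.29 ± 0.14 (SE; edgeR FDR = 0.745) and that of CRY2 -0.07 ± 0.05 (SE). For PER2 it was 0.06 ± 0.08, for PER3 -0.06 ± 0.10, for NR1D2 -0.06 ± 0.07 and for CLOCK 0.29 ± 0.47 (SE). CLOCK had the widest error and the fewest reads. When SGA CON replicate 6 and AGA CON replicate 2 were left out, PER1 was called as higher in SGA piglets (log2 fold change 0.20, edgeR FDR = 0.318), and likewise without AGA CON replicate 2 alone (0.17, FDR = 0.320) but not without SGA CON replicate 6 alone (0.18, FDR = 0.518). Within the cohorts PER1 differed by 0.11 ± 0.09 in cohort 1 and 0.36 ± 0.15 in cohort 2, and DBP by -0.26 ± 0.16 and -0.22 ± 0.16 (SE, none called by edgeR). Unlike the main fit, fits of size and diet within single cohorts, here and below, had no surrogate variables. Cohort 2 holds SGA CON replicate 6, whose pair had the largest PER1 difference of the 12 pairs (1.21 on the log2 scale).

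Within the 12 littermate pairs the direction could be read piglet by piglet. PER1 was higher in the SGA littermate in 10 of 12 pairs, the exceptions being the pair of CON replicate 2 and that of HF replicate 6. DBP was higher in the SGA littermate in 3 of 12 pairs, as were NR1D2 and CRY2. CLOCK was higher in the SGA piglet in 10 of 12 pairs, at counts of 0 to 12 reads. PER2 and CRY1 divided 7 to 5. With litter as a block and no surrogate variables, still no member was called (2.57% of all genes were), and the log2 fold changes were -0.23 ± 0.09 for DBP and 0.22 ± 0.09 for PER1 (SE; edgeR FDR = 0.531 and 0.564).

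**Figure D3:**
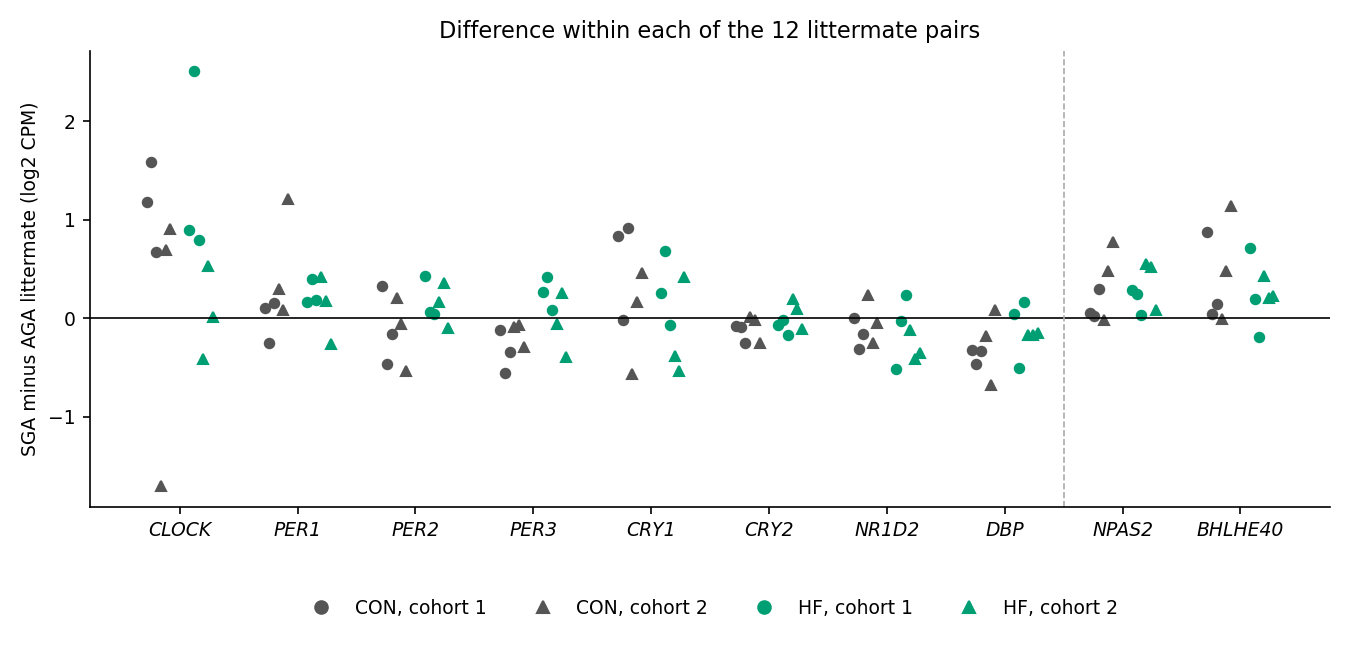
SGA minus AGA difference in log2 CPM within each littermate pair, for the 8 clock genes and, right of the dashed line, NPAS2 and BHLHE40 (grey for CON, green for HF, circles for cohort 1, triangles for cohort 2). PER1 lies above 0 in 10 of 12 pairs and DBP below 0 in 9 of 12, and the widest scatter is that of CLOCK.

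Of the other clock pathway genes, 22 of 26 listed were matched and 18 passed the filter on low counts. None was called for size in the fit with surrogate variables, in which NPAS2 had the lowest p (log2 fold change 0.17 ± 0.06, SE; edgeR FDR = 0.585). With litter as a block 2 of the 18 were called, both higher in SGA piglets, where 2.57% of all genes were called. NPAS2 was 42.8, 52.7 and 59.1 CPM (lowest, median and highest) in 12 AGA piglets and 57.0, 61.6 and 87.6 CPM in 12 SGA piglets, higher in the SGA littermate in 11 of 12 pairs, with a blocked log2 fold change of 0.28 ± 0.07 (SE; edgeR FDR = 0.252). BHLHE40 (DEC1), a repressor of the activator pair that also answers to neuronal activity, was 17.5, 25.1 and 36.3 CPM in AGA and 25.5, 34.1 and 40.5 CPM in SGA piglets, with a blocked log2 fold change of 0.35 ± 0.10 (SE; edgeR FDR = 0.318) and 10 of 12 pairs higher. In the fit with surrogate variables NPAS2 was called without SGA CON replicate 6 (0.18, edgeR FDR = 0.370), without AGA CON replicate 2 (0.20, FDR = 0.336) and without both (0.19, FDR = 0.283), but not without SGA HF replicate 4 (0.17, FDR = 0.711). BHLHE40 was not called in those fits (0.25, 0.26, 0.25 and 0.26). The blocked fit was not run with any library left out. For both genes the pair of CON replicate 6 had the largest littermate difference (0.77 for NPAS2 and 1.14 for BHLHE40, log2 scale). Within the cohorts, again without surrogate variables, NPAS2 differed by 0.15 ± 0.08 in cohort 1 and 0.41 ± 0.10 in cohort 2. BHLHE40 differed by 0.27 ± 0.15 and 0.40 ± 0.13 (SE, none called by edgeR). Of 12 immediate early genes and 14 glucocorticoid-responsive genes tested, 0 were called for size in either fit (edgeR). In the fit with surrogate variables 2 and 3 respectively had an unadjusted p under 0.05, as did 10.6% of all genes. In the blocked fit 6 and 2 did, all of them higher in SGA piglets, where 12.4% of all genes had such a p. By sign alone, 9 of the 12 immediate early and 6 of the 14 glucocorticoid-responsive genes were higher in SGA piglets in the blocked fit. DUSP1 is counted in both lists, and KLF9 is both glucocorticoid-responsive and a listed clock pathway gene.

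Marker levels of other cells were set beside these values. The summed level of the 5 oligodendrocyte markers had a median of 14078 CPM in AGA piglets (8580 to 16557) and 10729 CPM in SGA piglets (7143 to 15037). The 4 neuronal markers had medians of 5440 CPM (2739 to 6101) and 5497 CPM (5088 to 7099). Their part in the values of the clock genes was not tested, and in tissue RNA fewer cells of a type and less RNA per cell cannot be told apart.

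The second comparison was that of the diets. Again no clock gene was a DEG, with 0.159% of all genes called for HF against CON. Littermates shared a diet but entered this fit as separate piglets, with no litter term. Its errors and FDRs may therefore be too small. PER1 came closest, at 248, 281 and 572 CPM in 12 CON piglets and 208, 258 and 344 CPM in 12 HF piglets, a log2 fold change of -0.22 ± 0.06 (SE; edgeR FDR = 0.428). DBP ran the other way, at 5.63, 8.48 and 10.5 CPM in CON and 6.85, 9.58 and 12.6 CPM in HF piglets, a log2 fold change of 0.30 ± 0.11 (SE; edgeR FDR = 0.603). These were again 2 of 8 members at an unadjusted p under 0.05, and 7.09% of all genes tested. The log2 fold changes of CRY2 (0.05 ± 0.05), PER3 (0.09 ± 0.10), PER2 (0.04 ± 0.08), NR1D2 (0.02 ± 0.07), CRY1 (-0.0028 ± 0.14) and CLOCK (-0.28 ± 0.45, all SE) were each under 1.2 times their error.

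The value of PER1 by diet was sensitive to single libraries. It was called with DESeq2 (log2 fold change -0.22, FDR = 0.186) and in 4 of the 24 fits that left out 1 piglet, namely SGA HF replicate 4 (-0.29, edgeR FDR = 0.263), AGA HF replicate 3 (-0.23, FDR = 0.301), SGA HF replicate 3 (-0.18, FDR = 0.366) and SGA CON replicate 4 (-0.19, FDR = 0.397). Without SGA CON replicate 6 it was -0.14 (edgeR FDR = 0.655), without AGA CON replicate 2 it was -0.13 (FDR = 0.469), and without both it was -0.10 (FDR = 0.729). Within the cohorts it was -0.20 ± 0.09 in cohort 1 and -0.27 ± 0.15 in cohort 2, and that of DBP was 0.14 ± 0.16 and 0.33 ± 0.16 (SE, none called by edgeR). DBP by diet was called in 1 of the 24 fits, without SGA HF replicate 3 (0.30, edgeR FDR = 0.379), and was 0.20 (FDR = 0.726) without AGA HF replicate 2.

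Within size classes and diets, CRY1, DBP and PER1 had the lowest p-values. Between SGA and AGA piglets on CON (0.129% of genes called), the log2 fold change of CRY1 was 0.50 ± 0.19 and that of DBP -0.40 ± 0.15 (SE; edgeR FDR = 0.629 and 0.639). That of CRY1 was 0.58 ± 0.27 in cohort 1 alone and -0.028 ± 0.28 in cohort 2 alone (SE). On HF (0.288% called) that of PER1 was 0.19 ± 0.08 (SE; edgeR FDR = 0.676). In AGA piglets (0.0674% called) PER1 differed between HF and CON by -0.25 ± 0.08 (SE; edgeR FDR = 0.555). In SGA piglets (0.0919% called) DBP differed by 0.46 ± 0.15 and PER1 by -0.18 ± 0.08 (SE; edgeR FDR = 0.555 and 0.704). No member was called in these 4 contrasts, although DBP in SGA piglets was called when SGA CON replicate 1 (log2 fold change 0.58, edgeR FDR = 0.382) or SGA HF replicate 3 (0.50, FDR = 0.332) was left out, and PER1 in AGA piglets when AGA HF replicate 3 was (-0.29, FDR = 0.373). The PER1 value in AGA piglets was -0.12 (edgeR FDR = 0.694) without AGA CON replicate 2, -0.15 (FDR = 0.752) without AGA HF replicate 2, -0.16 (FDR = 0.734) without SGA CON replicate 6 and -0.067 (FDR = 0.903) without both AGA CON replicate 2 and SGA CON replicate 6. It was -0.32 ± 0.12 in cohort 1 and -0.042 ± 0.21 in cohort 2 (SE). In SGA piglets PER1 was -0.29 (FDR = 0.535) without SGA HF replicate 4, with -0.080 ± 0.12 in cohort 1 and -0.49 ± 0.21 in cohort 2 (SE). On HF it was 0.12 without AGA HF replicate 2 and 0.11 without SGA HF replicate 3.

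No clock gene was called for the interaction of size and diet (0.049% of genes were), and at an unadjusted p under 0.05 the count was 0 of 8 members and 4.01% of genes. PER3 showed the most uneven littermate pattern. It was lower in the SGA piglet in 6 of 6 CON pairs, while it was higher in the SGA piglet in 4 of 6 HF pairs. Its interaction log2 fold change was 0.22 ± 0.19 (SE; edgeR FDR = 0.883), and 0.34 ± 0.15 with litter as a block (SE; edgeR FDR = 0.569; 0.276% of genes called), so the diets were not shown to differ in it.

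**Figure D4:**
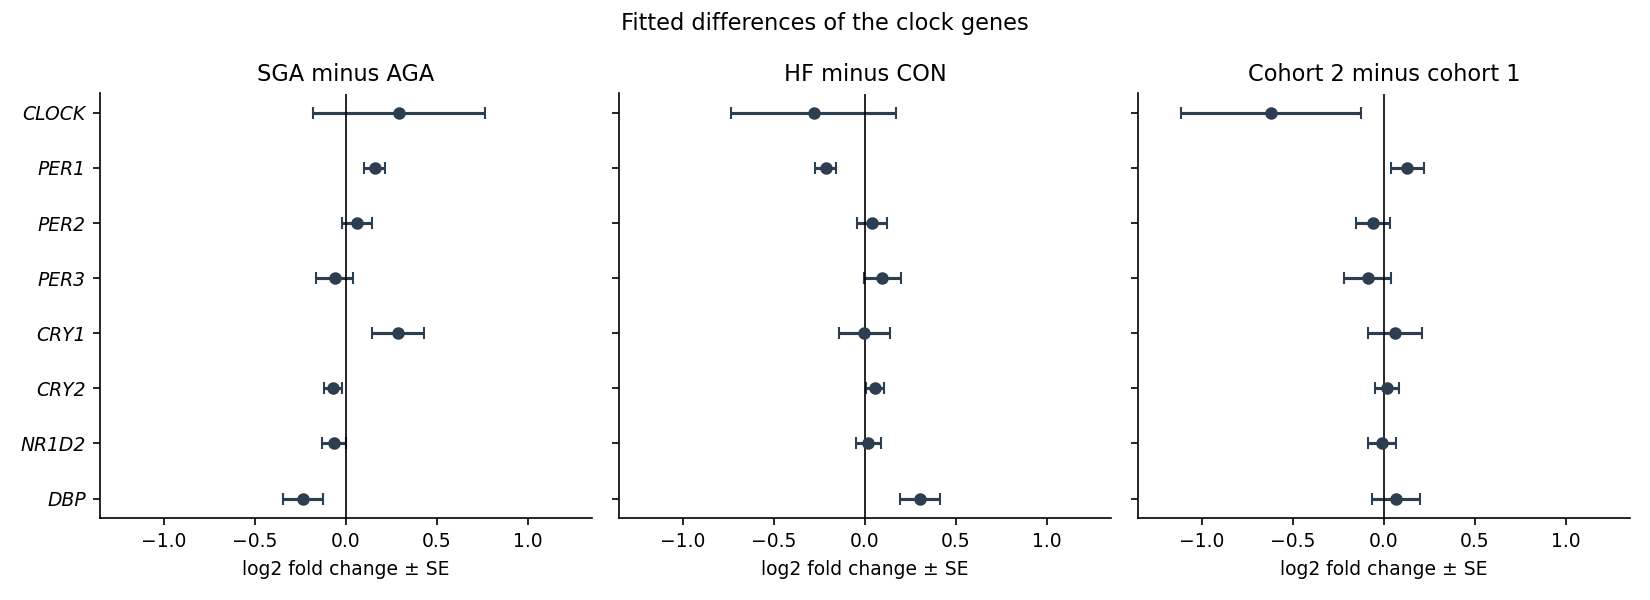
Fitted log2 fold change ± SE of the 8 clock genes for SGA minus AGA, HF minus CON and cohort 2 minus cohort 1. PER1 (0.16, -0.22 and 0.13) and DBP (-0.24, 0.30 and 0.07) lie on opposite sides of 0 for size and for diet, no value passed its threshold, and CLOCK has the widest errors.

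The cohorts were then compared. The counts of littermates were summed and 6 litters of cohort 2 set against 6 of cohort 1. No clock gene was called at an FDR of 0.05, where 0.447% of all genes were, and 0 of 8 had an unadjusted p under 0.05 (11.2% of all genes). PER1 had a log2 fold change of 0.13 ± 0.09 (SE; edgeR FDR = 0.647), with cohort medians of 275 CPM in cohort 1 and 273 CPM in cohort 2. DBP (0.07 ± 0.13), CRY1 (0.06 ± 0.15), CRY2 (0.01 ± 0.07), NR1D2 (-0.01 ± 0.08), PER2 (-0.06 ± 0.09), PER3 (-0.09 ± 0.13) and CLOCK (-0.62 ± 0.49, all SE) had FDRs of 0.685 or more. Leaving out the litters of SGA CON replicate 6 and AGA CON replicate 2 gave no call either. Of the 18 other clock genes 0 were called, and RORA, an activator of ARNTL, had the lowest p (log2 fold change -0.25 ± 0.09, SE; edgeR FDR = 0.297).

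Clock genes of one phase covary across animals sampled at different hours, and the covariation of the members was therefore described. Among the 28 pairs of members over 24 piglets, 14 had a positive and 14 a negative Pearson r. The median size of r was 0.188, beside 0.176 for pairs drawn over all genes tested. Only PER2 and PER3 passed 0.5 in either direction (r = 0.57, Spearman rho = 0.51). This r was 0.45 without SGA CON replicate 6, 0.47 without AGA CON replicate 2, and 0.30 without both, the libraries in which the 2 genes had their lowest and highest values. These points share library, scaling and, for littermates, a litter, so no p is given.

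The remaining pairs stayed under 0.5 in size. DBP had an r of 0.20 with NR1D2, 0.30 with PER3, -0.16 with PER1 and -0.11 with PER2. PER1 had an r of -0.24 with PER2 and -0.12 with PER3, and 0.06 and 0.35 without SGA CON replicate 6 and AGA CON replicate 2. The largest values below 0 involved CLOCK at the floor (r = -0.41 with NR1D2 and -0.33 with DBP).

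**Figure D5:**
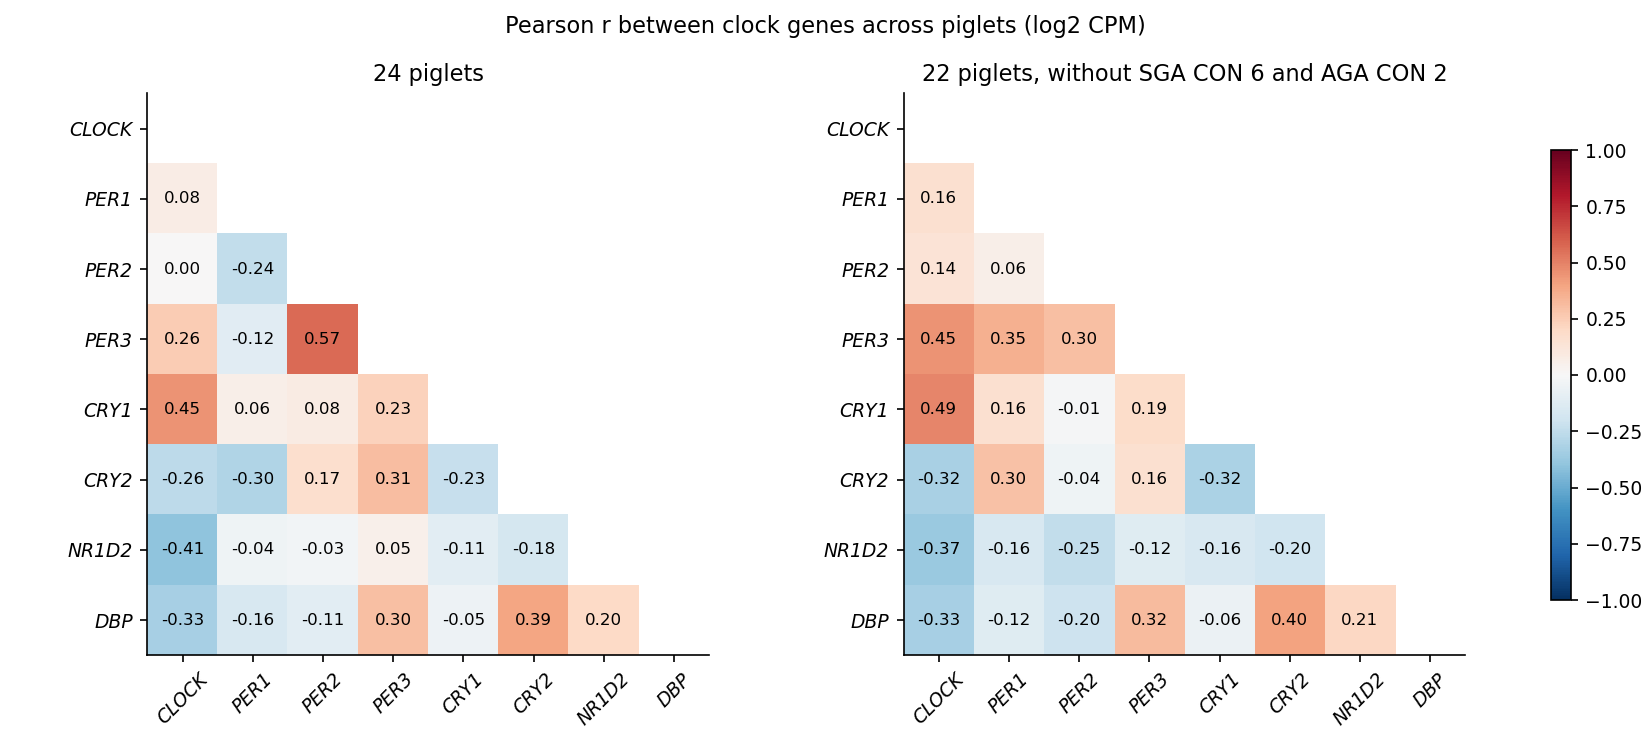
Pearson r of log2 CPM between clock genes over all 24 piglets (left) and over the 22 piglets left without SGA CON replicate 6 and AGA CON replicate 2 (right). PER2 with PER3 passes 0.5 on the left (0.57) and no pair does on the right, where that pair has 0.30.

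Each cohort was also taken alone. In the 12 piglets of cohort 1, 6 of 28 pairs of members (21.4%) passed 0.5 in size, beside 14.2% of pairs drawn over all genes tested. In the 12 of cohort 2, 5 pairs (17.9%) did, beside 14.0%. CRY1 and DBP had an r of -0.70 in cohort 1 and 0.53 in cohort 2. PER3 and CRY2 had an r of 0.76 in cohort 2. PER2 and PER3 passed 0.5 in both cohorts (0.61 and 0.52), with a Spearman rho of 0.71 in cohort 1 and 0.28 in cohort 2. Cohort 1 held AGA CON replicate 2, with the highest values of both genes. Cohort 2 held SGA CON replicate 6, with the lowest values of both. Differences between cohorts in r were not tested.

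A fit over all genes asked which of them followed DBP across the 24 piglets, with group, sex and cohort as terms. None of the 7 other members was called at an FDR of 0.05, where 0.19% of 16325 genes were, and none had an unadjusted p under 0.05 (12.1% of genes). The partial correlations with DBP were 0.30 for CRY2, 0.26 for PER1, 0.21 for PER3, 0.02 for CRY1, -0.11 for NR1D2, -0.18 for CLOCK and -0.28 for PER2. Of the 18 other clock genes 0 were called (limma), and CIART, a repressor of the activator pair counted at 1 to 12 reads, had the largest partial correlation (-0.59, limma FDR = 0.270). Among genes with a symbol, LOC numbers left out, those most like DBP were FAU (0.87), RPL8 (0.85), EIF3K (0.84), BAD (0.84) and MPC1 (0.84). Those most opposed were PUS7 (-0.79), RICTOR (-0.74), TMEM181 (-0.73), SKIDA1 (-0.73) and YWHAE (-0.72). The former were called and the latter were not (limma FDR of 0.0665 to 0.110). FAU and RPL8 encode ribosomal proteins and EIF3K a subunit of an initiation factor. DBP was measured from 38 to 94 reads, so its own counting error enters each of these values. With log2 library size as a term the number of genes that followed DBP was 3, against 31 without it, and with litter as a block it was 0. Leaving out 1 piglet gave 0 to 85 such genes, with 0 in 7 of the 24 fits.

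Littermates were taken from one litter and share cohort, diet and sex. None of these was taken out of the r given here, so likeness by litter and by shared diet, sex or cohort cannot be told apart. Over the 12 litters, the level in the SGA piglet followed that in the AGA piglet most closely for DBP (r = 0.53, rho = 0.70), PER3 (r = 0.45, rho = 0.46) and CRY2 (r = 0.35, rho = 0.49), beside a median r of 0.12 over all genes tested. For PER1 (-0.01), PER2 (-0.13), CRY1 (-0.15), NR1D2 (0.08) and CLOCK (0.000029) r lay near or below that median. DBP had r = 0.37 in the 6 litters of cohort 1 and 0.65 in the 6 of cohort 2. PER3 had r = -0.13 and 0.76, and CRY2 0.66 and 0.32, so the likeness of PER3 between littermates was seen in cohort 2 and not in cohort 1.

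A phase index was set as the mean z-score of DBP, NR1D2, PER1, PER2 and PER3 minus that of CLOCK, CRY1, ARNTL and NPAS2. It ran from -1.90 (SGA CON replicate 3) to 1.18 (AGA CON replicate 2). Its means were 0.53 ± 0.59 in AGA CON, 0.42 ± 0.47 in AGA HF, -0.74 ± 0.96 in SGA CON and -0.21 ± 0.76 in SGA HF (SD, n = 6 each). The SGA piglet had the higher index in 3 of 12 pairs. Cohort 1 averaged -0.12 ± 0.94 and cohort 2 0.12 ± 0.77 (SD, n = 12 each). The arms of the index had an r of -0.12 over 24 piglets, and littermates had an r of -0.48 over 12 litters. Of the second arm, CLOCK, ARNTL and NPAS2 are described above as peaking opposite to the first arm in rodent tissues. CRY1 is not among them. The mean z-score of the first arm ran from -0.41 to 1.29 in AGA and from -0.83 to 0.77 in SGA piglets. That of the second arm ran from -1.20 to 0.26 in AGA and from -0.71 to 1.26 in SGA piglets. The larger part of the difference by size thus lay in the second arm, which includes NPAS2, described above, and CLOCK at its floor. Whether the index reflects phase was not tested, and a score over chosen genes is given no p.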

How the data were processed

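RNA-seq libraries of 24 piglet hippocampi were analysed from the gene counts that the authors deposited, made per their methods and processing notes with Trimmomatic 0.33, STAR 2.5.2a (Sscrofa10.2) and featureCounts (Subread 1.5.0) on reverse-stranded, polyA-selected reads. These counts are whole numbers of reads per gene, not normalized. The entry without a gene identifier (0.613% to 1.62% of reads) was left out. Of the gene numbers, 23036 of 38882 were matched to the name table.

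The members and lists were chosen with earlier results of these data known. The 16326 genes that reached 1 CPM in 3 or more libraries entered the tests, made with edgeR 4.0.16 (R 4.3.3, TMM). Size and diet were fitted with sex and 5 surrogate variables (sva 3.50.0), as in the study's methods, with the Benjamini-Hochberg FDR taken over 7 contrasts together (114282 tests) and DEGs called under 0.4. No litter term was in this fit. Cohorts were compared on counts summed per litter with diet and sex as terms, and co-variation with DBP by limma-trend 3.58.1 on log2 CPM (prior count 2) with group, sex and cohort as terms, both called under 0.05. CPM used TMM-scaled sums of the tested genes, and FPKM the gene lengths in the files. Correlations and scores are descriptions. Replicate numbers pair the samples because the labels place same-numbered SGA and AGA piglets of a diet in one litter, and over all genes littermates had a median r of 0.12. The named genes are all members and the listed clock pathway genes that were called or had the lowest p. To these were added the 5 genes with a symbol (LOC numbers left out) at each end of the partial correlation with DBP. The 3-read floor covers counting error only, and reads carry no molecular identifiers. Alternatives were RLE scaling (DESeq2 1.42.0 size factors), no filter, a litter block, no surrogate variables, voom, DESeq2, other FDR rules, single cohorts, and each piglet or litter left out. The fits of size and diet within single cohorts had no surrogate variables. Leaving out SGA CON replicate 6 and AGA CON replicate 2 together was chosen after the data were seen. The fits were tested on simulated data.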

Additional observations from a re-analysis of the deposited data

Results flagged for a closer look

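Among 52 sets of 6 values (each member in each group, each member's littermate differences on each diet, and the phase index in each group), 4 had 1 piglet far from the others by Dixon's test, and chance flags about 1 set in 20. PER1 in SGA CON was 572 CPM in replicate 6, where the nearest other piglet had 338 CPM. PER2 in SGA CON was 13.8 CPM in the same replicate 6, where the nearest had 18.0 CPM. CLOCK in AGA CON was 1.59 CPM in replicate 4 (12 reads), where the nearest had 0.407 CPM. For the same litter the SGA minus AGA difference of CLOCK was -1.71 on the log2 scale, where the nearest CON pair had 0.67.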

How the results depend on the processing

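No member was called for the interaction, for either size contrast within diet, for cohort or for co-variation with DBP under any alternative run. One member was called for diet with DESeq2 (PER1) and for size with the FDR taken within the contrast or without both libraries that stood apart (PER1), and leaving out 1 piglet gave 0 to 1 members for size, 0 to 2 for diet, 0 to 1 for HF against CON in AGA and 0 to 1 in SGA piglets, and 0 to 0 elsewhere. With litter as a replicate block, NPAS2 (log2 fold change 0.28) and BHLHE40 (0.35) were called for size, as were 2.57% of all genes. The block changed no call of a member for size, the interaction, size within each diet or co-variation with DBP. It was not fitted for diet, which littermates share. NPAS2 was also called without surrogate variables (0.28, edgeR FDR = 0.362), with the FDR taken within the contrast (0.297), without both libraries (0.283) and in 3 of the fits that left out 1 piglet (SGA CON replicate 6, AGA CON replicate 2 and AGA HF replicate 3, FDR 0.336 to 0.370), and BHLHE40 with the FDR taken within the contrast (0.354). Pairs of members with r beyond 0.5 numbered 1 over all piglets, 6 and 5 within cohorts, and 0 without SGA CON replicate 6, without AGA CON replicate 2 or without both. The cause of these changes was not tested.

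Signs of log2 fold changes turned for values near 0 against their errors. For diet, CRY1 became 0.0134 with no filter, 0.0945 without surrogate variables, 0.0185 with voom, 0.349 in cohort 2 alone and 0.0283 without both libraries. In cohort 1 alone CRY2 became -0.0490 and CLOCK 0.538 for diet. In cohort 2 alone CRY1 became -0.0988, CLOCK -0.292 and PER2 -0.00162 for size, and CRY1 -0.0284 for size on CON. For cohort, CRY2 became -0.0446, CLOCK 0.788 and NR1D2 0.00939 among AGA piglets, CRY1 -0.160 among SGA piglets, NR1D2 0.0230 with no sex term, and NR1D2 0.0596, PER2 0.0403 and PER3 0.0744 without both litters. Leaving out 1 piglet gave ranges of -0.169 to 0.0359 for PER3 by size, and, by diet, of -0.0298 to 0.0925 for CRY2, -0.0455 to 0.153 for CRY1, -0.733 to 0.2496 for CLOCK, -0.0250 to 0.165 for NR1D2, -0.0368 to 0.0689 for PER2 and -0.0220 to 0.163 for PER3. Leaving out 1 litter gave cohort ranges of -0.0213 to 0.0502 for CRY2, -0.0819 to 0.205 for CRY1, -0.0672 to 0.154 for DBP, -0.0805 to 0.0590 for NR1D2, -0.120 to 0.0351 for PER2 and -0.224 to 0.0530 for PER3.

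Counts over all genes moved far more over all alternatives, each piglet or litter left out included, from 78 to between 0 and 1200 for size, 26 to between 0 and 433 for diet, 8 to between 0 and 263 for the interaction, 21 to between 0 and 290 for size on CON, 47 to between 0 and 848 on HF, 11 to between 0 and 471 for diet in AGA, 15 to between 1 and 215 in SGA, 73 to between 11 and 680 for cohort, and 31 to between 0 and 85 for DBP. The order of levels per length was the same with plain library totals. NR1D1 as anchor was not run because it is not analysed here. Depth limits CLOCK, with 3 reads or fewer in 13 of 24 libraries.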

Other observations

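Beyond the clock pathway lists, the glucocorticoid-responsive metallothionein gene MT2A had a partial correlation of 0.67 with DBP across the 24 piglets (limma FDR = 0.0964, not called). Its row was matched under another metallothionein symbol, not under MT2A. The gene was chosen after its values were seen. The 5 surrogate variables took 77.5% of the variance of PER1 that group and sex left, against 39.9% for DBP, 39.5% for PER3 and a median of 48.4% over all genes tested. HLF reached 143.5 CPM in SGA CON replicate 6 and 55.3 to 92.2 CPM in the other 23 libraries, and USP2, which encodes a deubiquitinase of clock proteins, reached 144.2 CPM there and 105.5 to 135.8 CPM elsewhere.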
